A study of Homo sapiens with 6 samples.

Results

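ABC transporters, ion pumps and ion channels were examined as the 226 genes with symbols of these families, of 13707 complete genes in the deposited table. The rule used symbols alone, but the families were proposed with earlier results of these data known. The symbols cover the sodium-potassium, calcium and copper pumps, the phospholipid flippases and P5 pumps, the A, B, C, D and G families of ABC transporters, and ion channel, store calcium and aquaporin families. RNA came from MDA-MB-231, an established human line of triple-negative breast cancer, which lacks hormone receptors and HER2 amplification. Libraries C1 to C3 carry one letter as a title and K1 to K3 the other, 6 in all. The series sets cells given 20 µM colistimethate, the inactive precursor of the antibiotic colistin, against control cells, and all libraries are of this 1 cell line. The labels leave it unstated which letter belongs to which arm, so differences are C minus K, with neither letter named as an arm. The labels mention repeats without saying that they were separate cultures, so p-values reflect only how far these libraries vary, and that variation may be technical.

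ABC transporters and P-type pumps use ATP to move lipids, metabolites, drugs or ions across membranes, and the pumps build the sodium, potassium and calcium gradients that ion channels then let run down. Flippases keep phosphatidylserine on the inner face of the plasma membrane. In breast cancer lines these genes are known for drug efflux, for calcium signals that drive migration, and for control of membrane voltage and cell volume.

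Of the 226 genes, 114 had enough reads to be tested, 48 had no read in any library, and 64 had reads but too few to test. A count of 0 over the 198040528 reads of all libraries allows up to 3 reads, or 0.0151 CPM (reads scaled to the library total), counting error only. At an adjusted p under 0.05, 3 genes were called, all lower in C: ATP8A1, a phosphatidylserine flippase, ABCC3, an exporter of bile salts and glucuronides, and KCNN4, a calcium-activated potassium channel. These 3 are 2.63% of the 114 tested genes, while 5.61% of all 9057 tested genes were called (2.20% higher and 3.41% lower in C), a larger share. At an unadjusted p under 0.05 there were 32 of the 114 (28.1%), against 27.0% of all tested genes. The median log2 fold change was -0.04 among them and 0.00 over all tested genes. DESeq2 called 8 of the 89 that it gave an adjusted p (8.99%), 3 higher and 5 lower in C, against 12.4% of all genes (6.30% higher and 6.15% lower). With edgeR the count was 6 of 114 without K2 (533 of 9129 over all genes) and 3 without K1 (117 of 9131). It was 2 without C1 (77 of 9140), C2 (116 of 9126), C3 (109 of 9133) or K3 (99 of 9131). Without K2 the share was again below that of all genes. With any other library left out it was above, on 2 or 3 calls. Limma on log2(TPM + 1) called 1 of 83, against 209 of 8093 over all genes.

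Depth over the listed genes lay between 31438065 and 35946691 reads per library, and these 226 genes took between 0.937% and 0.965% of the reads. The first principal component (28.5% of the variance) separated the letters. Reads of the mitochondrial genome were 3.11% to 3.26% of the total in C, against 4.99% to 5.85% in K. In lists of markers, 1 gene was called higher and 2 lower in C of 7 MDA-MB-231 markers tested (summed level 8329 to 8617 CPM in C, 7942 to 8220 CPM in K). Of 6 luminal markers 3 were called lower in C: ELF3 (log2 fold change -1.61), SPDEF (-1.39) and GATA3 (-0.47), a call that GATA3 lost in 10 alternatives and the other two in 5 each. FOXA1 lay higher in C without overlap and was not called (0.29, adjusted p = 0.193), while EPCAM overlapped (-0.21). The list's sum (272 to 303 CPM in C, 288 to 325 CPM in K) was mostly KRT8 (-0.07), and CDH1 was at 0 reads. None of 2 blood cell markers (689 to 706 CPM in C, 702 to 745 CPM in K) or 2 fibroblast markers (8.13 to 9.36 CPM in C, 8.98 to 9.36 CPM in K) was called, and CD3E and HBB were at 0 reads. Of 4 RNA quality genes the 3 mitochondrial ones were called lower (list sum 16060 to 16939 CPM in C, 26554 to 31029 CPM in K). Leaving the mitochondrial-genome genes out of the fit left the same 3 calls, while the part of the luminal and MDA-MB-231 marker differences in the results was not tested. In RNA from whole cultures, fewer cells of a kind and less RNA per cell cannot be told apart.

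Levels per gene length (TPM, scaled to transcript length and library total) set the context for the differences. CLIC1, a chloride intracellular channel protein that also exists in soluble form, was the most abundant gene of the set, at 1714, 1738 and 1798 TPM in C1 to C3, against 1520, 1603 and 1558 TPM in K1 to K3. All C values lay above all K values. ATP2A2, the SERCA2 calcium pump of the endoplasmic reticulum, averaged 266 TPM in C and 233 TPM in K. Over the libraries, 9 genes averaged at least 100 TPM, 51 at least 10 TPM and 83 at least 1 TPM. Only 33 of the 114 tested genes (28.9%) reached the median average expression of all tested genes, 5.43 log2 CPM.

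**Figure D1:**
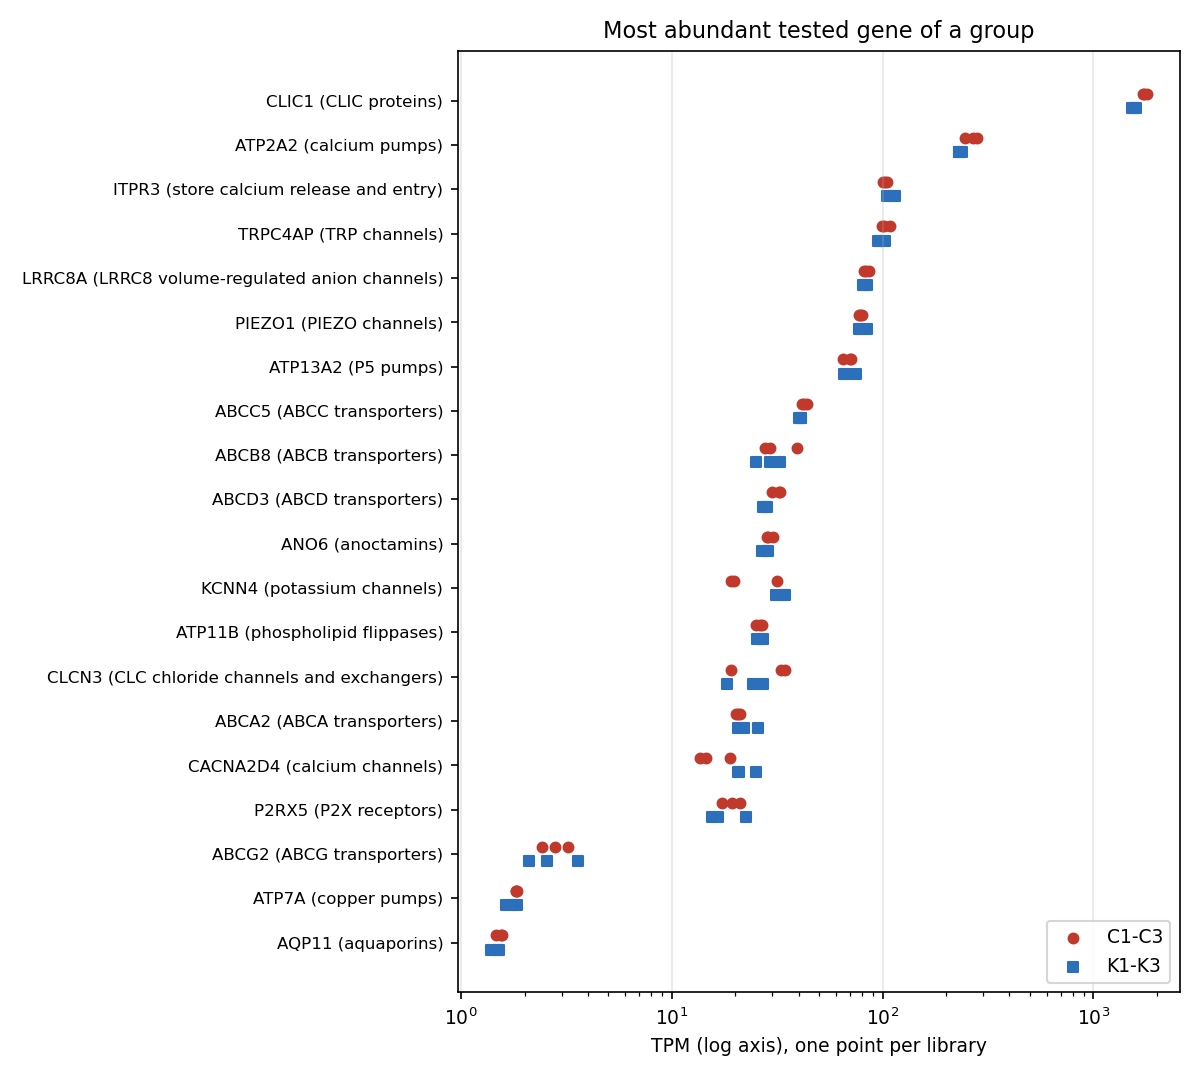
Deposited TPM (log axis) of the most abundant tested gene in 20 of the 22 groups, 1 point per library, with C libraries as circles above K libraries as squares. CLIC1 lies between 1520 and 1798 TPM, the aquaporin AQP11 below 1.6 TPM, and most genes have overlapping letters.

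ATP8A1 moves phosphatidylserine to the cytosolic leaflet of membranes and gave the smallest p of the 114 genes. It lies on chromosome 4, 42408373 to 42657105 on GRCh38, minus strand. It had 268, 283 and 261 reads in C1 to C3, against 403, 477 and 411 reads in K1 to K3. Scaled to depth, that was 8.09, 8.43 and 8.05 CPM in C1 to C3, and 12.8, 13.3 and 13.0 CPM in K1 to K3. In CPM every C library lay well under every K library, and the libraries of a letter differed little from each other. The log2 fold change was -0.67 (SE 0.0681, adjusted p = 0.00763), 1.59-fold higher in K. Leaving out any one library kept the adjusted p between 0.0305 and 0.0412. In deposited TPM the letters did not overlap either, at 1.34, 1.41 and 1.81 in C1 to C3, against 2.39, 2.18 and 2.87 in K1 to K3. Relative to their level, libraries of a letter spread more there than in CPM. With limma on log2(TPM + 1) the difference shrank to -0.47 and the call was lost (adjusted p = 0.0765). At 1 to 3 TPM the added 1 makes any change smaller on that scale, but what cost the call was not tested.

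ABCC3, also named MRP3, exports glucuronide conjugates and bile salts across the basolateral membrane of epithelia. It lies on chromosome 17, 50634777 to 50692252, plus strand. It was at 30.4, 28.5 and 30.1 CPM in C1 to C3, against 44.0, 46.5 and 52.0 CPM in K1 to K3. The letters did not overlap, and K3 stood highest. The log2 fold change was -0.68 (SE 0.0733, adjusted p = 0.00887), and leaving out any one library kept the adjusted p between 0.0171 and 0.0473. In deposited TPM it averaged 9.36 in C and 14.2 in K, again without overlap.

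KCNN4 forms a potassium channel opened by calcium through bound calmodulin, and was the most abundant potassium channel gene in TPM. It lies on chromosome 19, 43766533 to 43781257, minus strand. Its levels were 29.3, 32.7 and 28.8 CPM in C1 to C3, against 39.9, 44.4 and 48.1 CPM in K1 to K3. In CPM the letters did not overlap, and the log2 fold change was -0.54 (SE 0.0872, adjusted p = 0.0278). In deposited TPM they did: C1 to C3 had 19.7, 31.4 and 19.1 TPM, and K1 to K3 had 34.4, 33.7 and 31.1 TPM. C2 thus stood just above K3 on that scale, and limma on log2(TPM + 1) gave an adjusted p of 0.173. The call was also lost without C1 (adjusted p = 0.108), C2 (0.059), C3 (0.0963) or K3 (0.0937). None of the 3 called genes shared a 75-base exonic window with another gene or overlapped another gene's exons in GENCODE release 29.

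Start-site sequences of ATP8A1 and KCNN4, a pair of the 3 called genes, show the promoters of genes that moved the same way. Both are from RefSeq on GRCh38.p14, minus strand, written 5′ to 3′ from 250 bases before to 50 after the start. Capitals mark a GC box (GGGCGG, or CCGCCC where it lies on the opposite strand). ATP8A1 covers chr4:42657056-42657355 and KCNN4 covers chr19:43780924-43781223. The deposited locus of KCNN4 reaches 43781257, beyond the upstream end of its window, so that window lies within the locus. The deposited locus of ATP8A1 ends at 42657105, inside its window.
ATP8A1: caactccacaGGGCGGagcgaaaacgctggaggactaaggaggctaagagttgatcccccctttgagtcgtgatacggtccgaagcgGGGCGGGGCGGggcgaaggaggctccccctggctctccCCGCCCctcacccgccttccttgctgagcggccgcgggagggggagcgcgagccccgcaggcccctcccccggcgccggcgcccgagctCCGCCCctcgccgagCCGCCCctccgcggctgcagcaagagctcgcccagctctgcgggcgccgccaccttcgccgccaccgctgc
KCNN4: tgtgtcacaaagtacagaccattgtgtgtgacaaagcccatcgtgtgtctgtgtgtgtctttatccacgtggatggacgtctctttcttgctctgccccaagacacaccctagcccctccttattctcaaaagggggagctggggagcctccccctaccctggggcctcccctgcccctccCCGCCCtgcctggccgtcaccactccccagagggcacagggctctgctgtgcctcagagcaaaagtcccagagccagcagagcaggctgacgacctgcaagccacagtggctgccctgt
The ATP8A1 window was 74.7% G and C and held 6 GC boxes, at -240, -163, -158, -125, -36 and -21 from the start, of which the pair at -163 and -158 overlap by 1 base. The KCNN4 window was 60.7% G and C and held 1 GC box, at -69. Neither held the TATA box, searched as TATAAA on both strands. The AP-1 element, searched as TGANTCA, was likewise not found in these windows. A search for the CCAAT box also gave no match. Among all 35116 promoters of this length, 45.0% held a GC box, 34.6% a CCAAT box, 11.5% a TATA box and 7.7% an AP-1 element. Promoters were found for 161 of the 226 genes, of which 60.2% held a GC box, 28.6% a CCAAT box, 11.2% a TATA box and 5.6% an AP-1 element. Their median G and C content was 64.7%, against 58.7% over all promoters. A match is a description of the letters and no evidence of binding.

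**Figure D2:**
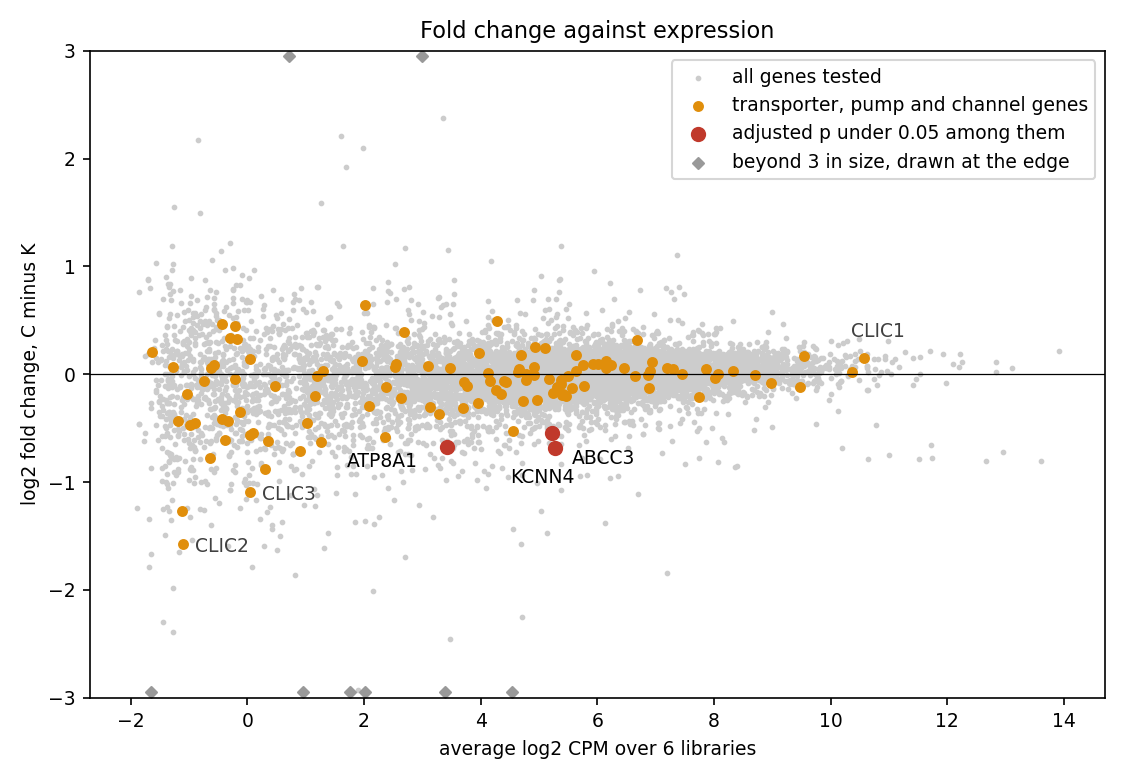
Log2 fold change (C minus K) against average log2 CPM over 6 libraries for the 9057 genes tested (grey), the 114 transporter, pump and channel genes (orange) and the 3 called among them (red). Genes beyond 3 in size are drawn at the edge; the called genes lie between -0.68 and -0.54, and CLIC2 and CLIC3 lie lower at much lower expression.

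Pumps of the sodium-potassium group had 4 tested genes and no call. ATP1B1, a beta subunit, was at 319, 331 and 324 CPM in the C libraries and 317, 320 and 316 CPM in the K libraries (0.03). Its relative ATP1B3 had similar means, but C2 stood apart at 183 CPM, with the other libraries between 255 and 299 CPM.

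Calcium pumps clear the cytosol of calcium, the SERCA pumps into the endoplasmic reticulum and the plasma membrane pumps out of the cell. Of 4 tested genes 3 did not overlap between letters, against 33.8% of all tested genes, and they differed in sign. ATP2A2 was at 806, 735 and 835 CPM in C1 to C3, against 687, 727 and 693 CPM in K1 to K3 (log2 fold change 0.17, SE 0.0523, adjusted p = 0.103). ATP2B1, a plasma membrane pump, was at 209, 196 and 190 CPM in C1 to C3, against 234, 221 and 232 CPM in K1 to K3 (-0.21, SE 0.0461, adjusted p = 0.0547; -0.12 with an offset for GC content and length). ATP2A1, the SERCA pump of fast muscle, was at 4.20, 4.35 and 3.64 CPM in C1 to C3, against 5.51, 6.08 and 6.70 CPM in K1 to K3 (-0.58, SE 0.125, adjusted p = 0.0512). None of the 3 passed the test, though DESeq2 called all of them, and ATP2A1 passed (adjusted p = 0.0467) when only genes with a mean of at least 50 counts were tested. In deposited TPM the letters of ATP2A1 overlapped, and limma on log2(TPM + 1) gave -0.24 (adjusted p = 0.395). ATP2A1 has antisense overlaps with ATP2A1-AS1 and RABEP2, and the use of strand in counting is not given in the sources used here. ATP2B4 varied within letters, with 29.5 CPM in C3 and 25.3 CPM in K2, and between 50.8 and 57.5 CPM elsewhere. Summed TPM of calcium pumps was 323 ± 16 in C and 297 ± 6.16 in K, of which ATP2A2 made up 82.2% in C and 78.6% in K.

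The copper exporter ATP7A was at 11.3 ± 0.0492 CPM over the C libraries and 10.9 ± 0.806 CPM over the K libraries (0.06 as log2 fold change, adjusted p = 0.695). Among 7 tested flippases, ATP8A1 alone was called. Its closest relative in the set, ATP8A2, ranged from 2.51 CPM in K2 to 8.09 CPM in K1. With that spread the log2 fold change of ATP8A2 was imprecise (0.10, SE 0.389, adjusted p = 0.899). ATP11B, the most abundant flippase by TPM, was at 99.8 ± 4.50 CPM over the C libraries and 101 ± 1.54 CPM over the K libraries (-0.02 as log2 fold change, adjusted p = 0.792; 0.07 with an offset for GC content and length). ATP8B1, ATP9A and ATP9B had log2 fold changes between -0.09 and -0.01. TMEM30A, the subunit that many flippases need to leave the endoplasmic reticulum, was at 269, 275 and 265 CPM in C1 to C3, against 252, 184 and 188 CPM in K1 to K3. It lay higher in C without overlap, the opposite side from ATP8A1, and did not pass (0.37, SE 0.121, adjusted p = 0.118). The P5 pumps ATP13A2, a lysosomal polyamine exporter, and ATP13A1, of the endoplasmic reticulum, had log2 fold changes of -0.01 (adjusted p = 0.904) and 0.00 (adjusted p = 0.975).

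**Figure D3:**
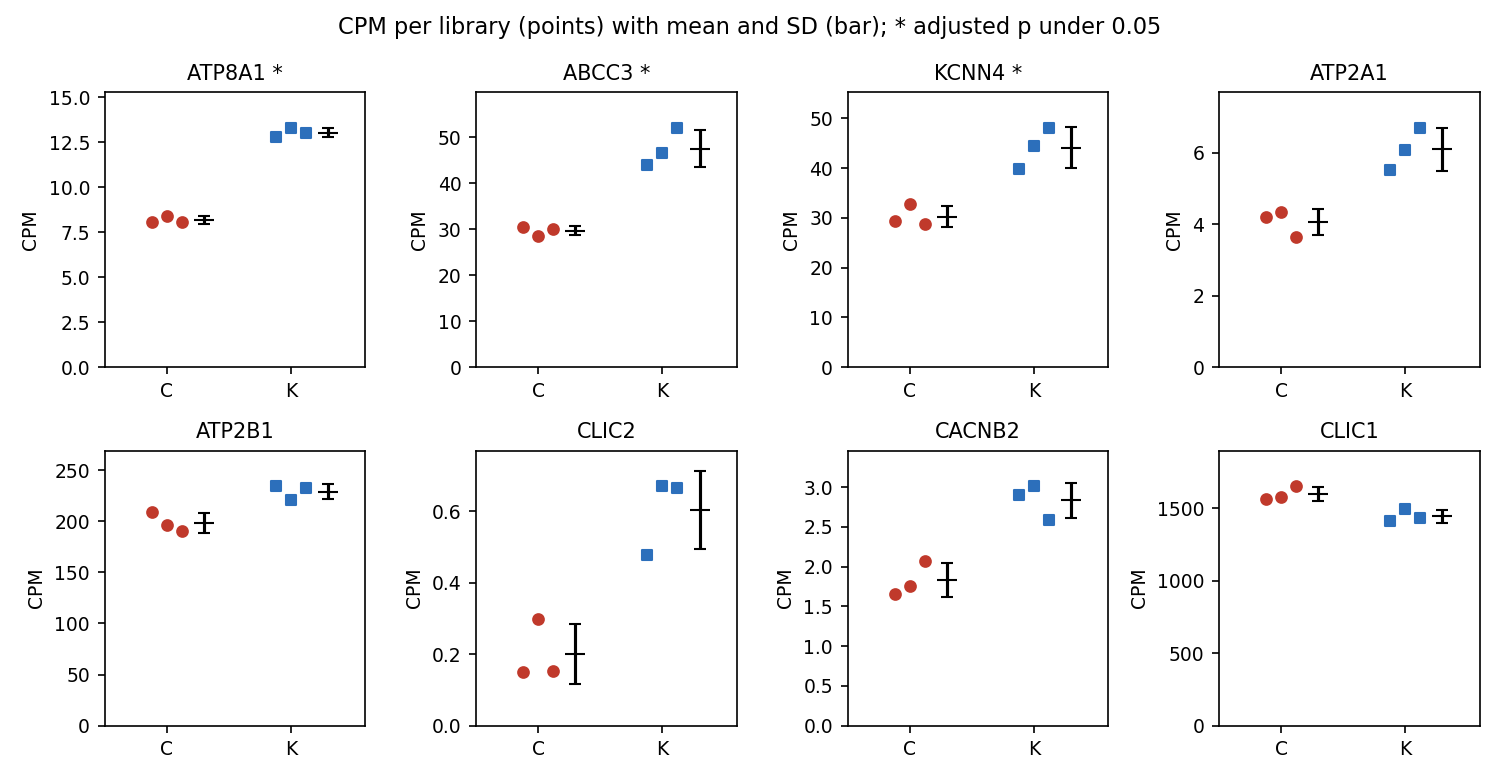
CPM per library for the 3 called genes (starred) and the 5 with the next smallest p, C circles left of K squares, with the mean and SD (n = 3) as bars; all axes start at 0. ATP8A1 shows the widest gap for its spread, and CLIC1 is the 1 gene of the 8 that lies higher in C.

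ABC transporters gave 1 call among 22 tested genes, ABCC3. Of 6 tested genes of the C family 4 did not overlap between letters, against 33.8% of all tested genes. ABCC10, ABCC5 and ABCC4 lay on the other side from ABCC3, each higher in C without overlap, as were 16.1% of all tested genes. ABCC10 was at 74.1, 73.2 and 74.9 CPM in C1 to C3, against 65.6, 70.5 and 68.7 CPM in K1 to K3 (log2 fold change 0.12, adjusted p = 0.133). ABCC5, an exporter of nucleotide analogues, was at 150 ± 2.25 CPM over the C libraries and 144 ± 2.38 CPM over the K libraries. Its log2 fold change was 0.06 (adjusted p = 0.265), and 0.02 with an offset for GC content and length. ABCC4 had 0.09 (adjusted p = 0.294). Neither these 3 nor ABCC6 or ABCC9 passed. Summed TPM of the 9 listed genes of the C family was 90.0 ± 1.59 in C and 89.7 ± 2.64 in K. ABCC1 and ABCC2 were not among the listed genes, so this is not a total of the family.

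Lipid transporters of the A family included 4 genes without overlap of 7 tested, against 33.8% of all tested genes. ABCA2, a lysosomal sterol transporter, was at between 109 and 117 CPM in C, against 122 to 126 CPM in K (-0.13 on the log2 scale, SE 0.0387, adjusted p = 0.103). ABCA5 (-0.31, adjusted p = 0.0982) and ABCA7 (-0.18, adjusted p = 0.170) lay lower in C, while ABCA3, known for surfactant lipids, lay higher (0.06, adjusted p = 0.303). With limma on log2(TPM + 1) the sign of ABCA7 turned. ABCA1, the cholesterol exporter, was under 1 CPM in every library. The B family's tested genes, of which ABCB6, ABCB8 and ABCB10 are known from mitochondria, overlapped between letters without exception. ABCB8 was at 46.6, 57.6 and 54.6 CPM in C1 to C3, and 54.5, 42.9 and 42.7 CPM in K1 to K3 (0.18, adjusted p = 0.393; 0.31 without K1). The multidrug exporter ABCB1 had 2 reads in all libraries together.

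ABCD3, which brings fatty acids into peroxisomes, was at 70.1, 64.9 and 66.2 CPM in C1 to C3, against 62.3, 62.1 and 62.9 CPM in K1 to K3. The letters did not overlap, and the difference did not pass (log2 fold change 0.10, SE 0.0429, adjusted p = 0.185; 0.20 with the GC and length offset). ABCG2, the breast cancer resistance protein, was low, with 186, 163 and 141 reads in C1 to C3, set against 148, 165 and 216 reads in K1 to K3. The letters overlapped (-0.12, SE 0.192, adjusted p = 0.726), and without K3 the sign turned to 0.09.

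Potassium channels were the largest group, with 68 genes and 24 tested; KCNN4 was the 1 call. Their median log2 fold change was -0.19, against 0.00 over all tested genes. All 24 lay below the median expression of all tested genes, and genes below it had a median of -0.05. The letters did not overlap for 6 of the 24, 5 lower and 1 higher in C, against 33.8% of all tested genes. Among all genes below the median expression, 19.3% were lower and 8.70% higher in C without overlap. KCNQ3, of the neuronal M-current, was at 15, 13.3 and 13.8 CPM in C1 to C3, against 17.4, 16.1 and 17.5 CPM in K1 to K3 (-0.27, SE 0.0757, adjusted p = 0.0858; -0.03 with limma on log2(TPM + 1)). KCNK6, a leak channel (-0.30, adjusted p = 0.101), and KCNMB3, an auxiliary subunit (-0.29, adjusted p = 0.155), also lay lower in C. KCNRG (-0.88, adjusted p = 0.108), a regulator and not a channel, shares 58.2% of its windows with TRIM13. KCNK7 was the 1 higher in C, with 26, 29 and 23 reads in C1 to C3, against 15, 21 and 20 reads in K1 to K3 (0.47, SE 0.218, adjusted p = 0.225). KCNK1 (-0.05) and KCNQ5 (0.02), among the more abundant channels, overlapped. Summed TPM of the group was 71.8, 83.4 and 71.0 in C1 to C3, against 90.4, 84.4 and 86.8 in K1 to K3. That gap was narrow between C2 and K2, and KCNN4 made up 30.7% of the sum in C and 37.9% in K.

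Tested genes of the calcium channel group had symbols of the auxiliary subunit families CACNA2D, CACNB and CACNG. None of the 9 listed pore-forming CACNA1 genes was tested, and the one with most reads had 31 in all libraries together. CACNA1A was not among the listed genes, so its level is not known here. CACNB2, a beta subunit, was at 1.66, 1.76 and 2.07 CPM in C1 to C3, against 2.90, 3.01 and 2.59 CPM in K1 to K3 (log2 fold change -0.63, SE 0.147, adjusted p = 0.0584). It passed (adjusted p = 0.0481) when only genes with a mean of at least 50 counts were tested. CACNB1, another beta subunit, had -0.25 (SE 0.0732, adjusted p = 0.0988) without overlap. CACNA2D4, the most abundant of the group, was at 23.8, 14.5 and 18.9 CPM in C1 to C3, and 31.3, 22.6 and 29 CPM in K1 to K3 (-0.53, SE 0.203, adjusted p = 0.160). C1 lay above K2, so its letters overlapped.

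Store-operated calcium entry couples release through inositol trisphosphate receptors to the STIM sensors and ORAI pores. ITPR3, the most abundant receptor, was at 677, 661 and 694 CPM in C1 to C3, against 749, 708 and 753 CPM in K1 to K3. All C values lay below all K values, and the difference missed the threshold (log2 fold change -0.12, SE 0.0356, adjusted p = 0.0967). It passed without K2 (adjusted p = 0.0498) and under the offset for GC content and length (-0.16, adjusted p = 0.0415). ITPR3 overlaps UQCC2 on the opposite strand by 1025 exonic bases. ORAI1, the pore, was at 156, 157 and 163 CPM in the C libraries and 159, 151 and 149 CPM in the K libraries (0.05, adjusted p = 0.460). STIM1 (0.09), STIM2 (0.18) and ITPR2 (-0.04) also overlapped. ORAI3 had 13.8 CPM in K2 and between 35.3 and 40.7 CPM in the other libraries, and shares 46.2% of its windows with another gene model.

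TRP channels had 7 tested symbols. TRPC4AP, the most abundant at 103 TPM in C and 98.3 TPM in K, encodes a protein that binds a TRP channel and is not one itself (log2 fold change 0.05, adjusted p = 0.556). TRPM7, a channel fused to a kinase, was at 53.1, 50.8 and 54.2 CPM in C1 to C3, against 61.3, 54.2 and 55.1 CPM in K1 to K3 (-0.11, adjusted p = 0.299), with C3 just below K2. PIEZO1, a mechanically gated channel, was at 417, 410 and 418 CPM in C and 421, 405 and 428 CPM in K, with overlap (-0.01, adjusted p = 0.864). Its relative PIEZO2 was near 1 CPM (-0.62, adjusted p = 0.123).

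Chloride intracellular channel (CLIC) proteins were the group in which no tested gene overlapped between letters, 5 of 5, against 33.8% of all tested genes, and no CLIC gene was called. CLIC1 was at 1560, 1579 and 1649 CPM in C1 to C3, against 1408, 1490 and 1429 CPM in K1 to K3 (log2 fold change 0.15, SE 0.0346, adjusted p = 0.0616). It passed with DESeq2 (adjusted p = 0.0140) and without K2 (0.0454). The other members lay lower in C. CLIC4 was at 493, 490 and 478 CPM in C1 to C3, against 513, 527 and 509 CPM in K1 to K3 (-0.08, SE 0.0281, adjusted p = 0.123), a sign that turned with the GC and length offset. CLIC6 was at 29, 27.7 and 29.2 CPM in C1 to C3, against 34, 29.8 and 37.3 CPM in K1 to K3 (-0.24, adjusted p = 0.154). CLIC2 and CLIC3 were close to the limit of testing. CLIC2 had 5, 10 and 5 reads in C1 to C3, against 15, 24 and 21 reads in K1 to K3 (-1.57, SE 0.360, adjusted p = 0.0572). CLIC3 had 16, 20 and 25 reads in C1 to C3, against 29, 49 and 52 reads in K1 to K3 (-1.09, SE 0.297, adjusted p = 0.0842; -0.57 with limma on log2(TPM + 1)).

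The endosomal chloride-proton exchangers CLCN3, CLCN4 and CLCN5 overlapped between letters. CLCN4 was at 120, 105 and 116 CPM in C1 to C3, and 104, 61.3 and 108 CPM in K1 to K3, so that K2 alone stood low (log2 fold change 0.32, SE 0.208, adjusted p = 0.372; 0.10 without K2). CLCN3 had 0.06 (adjusted p = 0.843), which turned to -0.06 without C2. CLCN6, of late endosomes, was at 40.7, 40.9 and 38.2 CPM in C1 to C3, against 47.7, 42.6 and 45.2 CPM in K1 to K3 (-0.18, SE 0.0593, adjusted p = 0.123), without overlap. The anoctamin ANO6, a calcium-activated lipid scramblase, was at 122, 120 and 121 CPM in the C libraries and 121, 117 and 115 CPM in the K libraries (0.03, adjusted p = 0.555). ANO5 lay higher in C without overlap (0.20, adjusted p = 0.115), and passed under the offset for GC content and length.

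LRRC8 proteins form the volume-regulated anion channel, of which LRRC8A is the obligatory subunit. It was at 261, 267 and 278 CPM in C1 to C3, and 262, 269 and 273 CPM in K1 to K3, nearly the same range (log2 fold change 0.00, SE 0.0357, adjusted p = 0.967). LRRC8D was at 44.8, 48.5 and 43.0 CPM in C1 to C3, against 50.7, 49.5 and 48.5 CPM in K1 to K3 (-0.13, SE 0.0571, adjusted p = 0.218), the highest C value just below the lowest K value. LRRC8E had 26.6 CPM in C1 and between 46.4 and 50.3 CPM elsewhere. Without C1 its difference turned from -0.20 to 0.03. An antisense model covers 3218 of its 4329 exonic bases. The water channel AQP11 was the 1 tested aquaporin of 12, at 2.41 ± 0.0855 CPM over the C libraries and 2.36 ± 0.131 CPM over the K libraries (0.03 as log2 fold change, adjusted p = 0.914).

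P2X receptors are cation channels opened by extracellular ATP. P2RX5 was at 27.7, 17.1 and 23.1 CPM in C1 to C3, and 18.2, 14.6 and 15.7 CPM in K1 to K3 (log2 fold change 0.49, SE 0.183, adjusted p = 0.156). The difference was 0.31 without C1 and 0.08 with limma on log2(TPM + 1). C2 lay below K1. The readthrough model P2RX5-TAX1BP3 lay on the other side, at 35.2, 36.8 and 34.6 CPM in C1 to C3, against 39.6, 41.2 and 39.2 CPM in K1 to K3 (-0.17, SE 0.0489, adjusted p = 0.0912). The pair share sequence (37.1% of the windows of P2RX5, 44.9% of those of the readthrough model), so the division of reads between them is uncertain. P2RX7, near 2 CPM, had -0.45 (SE 0.144, adjusted p = 0.115) without overlap, and P2RX4 had -0.15 (adjusted p = 0.412).

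**Figure D4:**
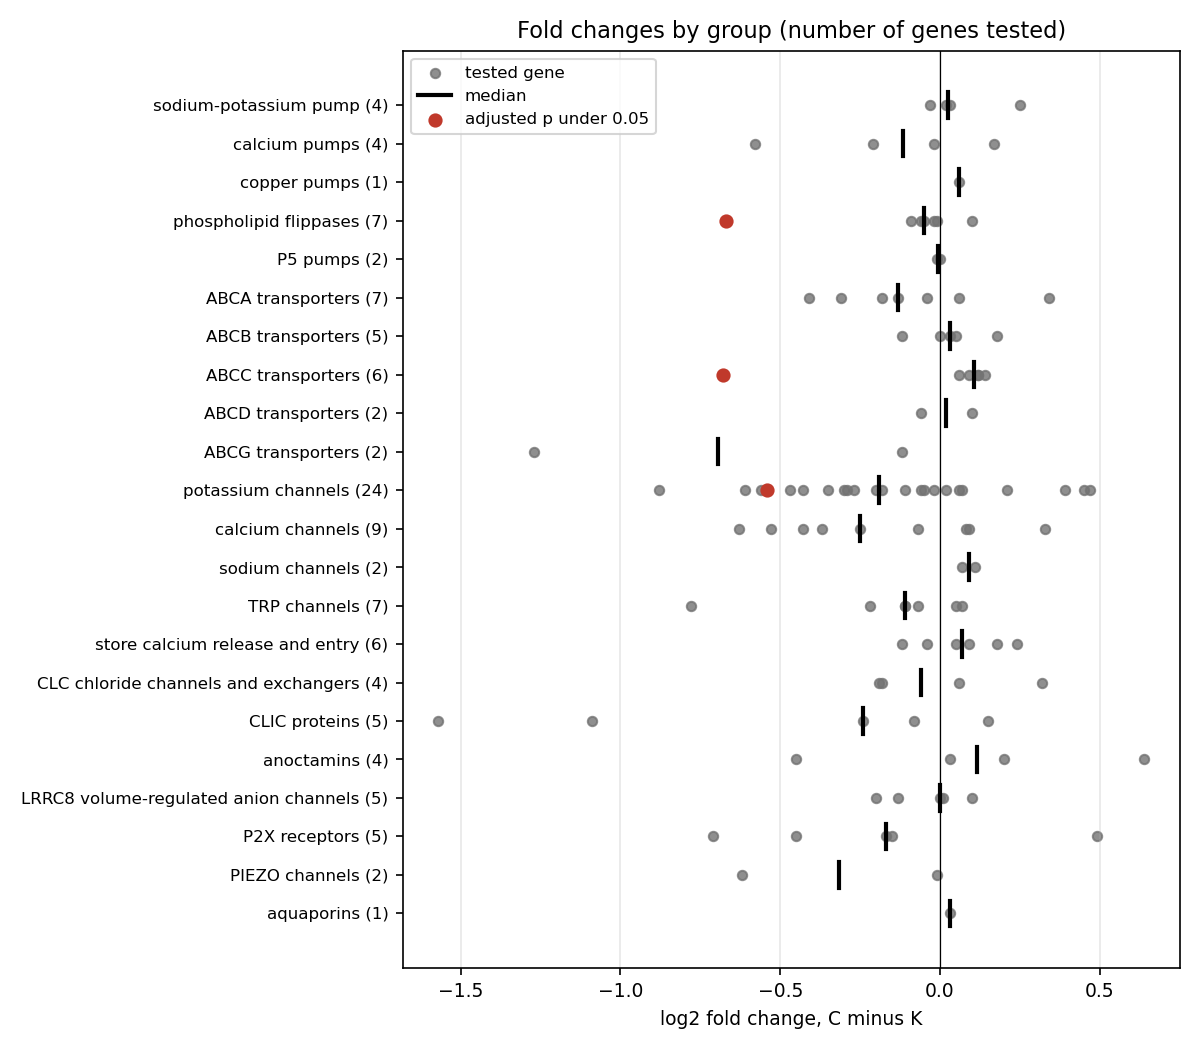
Log2 fold change (C minus K) of each tested gene in the 22 groups, with the group median as a bar and the called genes in red; the number tested stands in brackets. Medians lie between -0.70 (2 ABCG genes) and 0.12 (4 anoctamins), and the called genes lie left of the other tested genes of the flippases and of the ABCC family.

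Over the 114 genes, 37 (32.5%) had letters that did not overlap in CPM, against 33.8% of all tested genes. In detail, 10 (8.77%) were higher and 27 (23.7%) lower in C, while 16.1% of all tested genes were higher and 17.7% lower. The set holds many weakly expressed genes, so the same shares were taken below the median expression. There, 3 of 81 genes (3.70%) were higher and 21 (25.9%) lower in C without overlap, against 8.70% and 19.3% of 4528 genes. Their median log2 fold change was -0.11, against -0.05 for all genes below the median. At or above the median, the median size of the change was 0.08 for these genes and 0.09 for all.

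Summed TPM did not overlap between letters in 7 of the 22 groups. The sums were higher in C for calcium pumps, the ABCD family, sodium channels, CLIC proteins and anoctamins, and lower for potassium channels and calcium channels. Each of the 7 had an exact two-sided permutation p of 0.1, the smallest that 3 against 3 libraries allow, and 0.31 after Benjamini-Hochberg adjustment over the 22 groups. CLIC proteins summed to 1880, 1903 and 1959 TPM in C1 to C3, against 1693, 1778 and 1734 TPM in K1 to K3. Calcium channel subunits summed to 47.4, 43.8 and 45.9 TPM in C1 to C3, against 58.1, 50.1 and 53.8 TPM in K1 to K3. Summed as CPM, the log2 difference was 0.08 for CLIC proteins (0.14 in TPM), 0.07 for the ABCD family (0.14) and 0.11 for sodium channels (0.21). Sums of sodium channels then overlapped between letters. Those of the ABCD family overlapped on TMM-scaled totals (80.5 CPM in C2, 81.1 CPM in K1). On plain totals they lay at 81.1 CPM in C2 against 81.0 CPM in K1. The reverse held for flippases and ABCA transporters, whose sums overlapped in TPM but were lower in C without overlap in CPM. On TMM-scaled totals flippases summed to 239, 250 and 246 CPM in C1 to C3, against 261, 253 and 255 CPM in K1 to K3. ABCA transporters summed to 222, 214 and 220 CPM in C1 to C3, against 228, 231 and 235 CPM in K1 to K3. The cause was not tested.

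Genes that work with these transporters and channels were counted in 5 further lists, and 0 of their 36 tested genes was called by edgeR; 10 of them (27.8%) had an unadjusted p under 0.05, against 27.0% of all tested genes. DESeq2 called 4 of the 33 it gave an adjusted p (12.1%), against 12.4% of all genes. The list of store, mitochondrial and endolysosomal calcium handling had 11 tested genes (median log2 fold change -0.04), including MCOLN1, a lysosomal calcium channel, at 84.7, 82.4 and 78.5 CPM in C1 to C3, against 72.9, 75.1 and 72.2 CPM in K1 to K3 (0.16, adjusted p = 0.0822). Pump subunits and metal chaperones had 4 tested genes (median 0.12), among them CCS, the copper chaperone of superoxide dismutase (0.21, adjusted p = 0.0637). Other channels had 11 (median 0.12), other ABC proteins 3 (median 0.10), and kinases and ligases that regulate pumps and channels 7 (median 0.03). The epithelial sodium channel subunit SCNN1A was at 1.6, 1.22 and 0.617 CPM in C1 to C3, against 3.44, 1.70 and 2.85 CPM in K1 to K3 (-1.21, SE 0.400, adjusted p = 0.122).

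In some transporter and channel genes the deposited reads and TPM did not move together across libraries. Among genes with a mean of at least 100 reads, the ratio of reads to TPM, scaled to depth, spread more than 1.5-fold over the libraries in 10 of 80 of these genes (12.5%), against 411 of 7776 of all genes (5.29%). The spread was 7.25-fold for ANO7, 2.62-fold for the exchanger CLCN5, 2.48-fold for the flippase ATP8A2, 1.90-fold for the calcium channel subunit CACNB4, 1.75-fold for the calcium pump ATP2B4 and 1.70-fold for the calcium sensor STIM2. P2RX5 (1.67), CLCN3 (1.65), ABCB8 (1.64) and ATP2A1 (1.62) were the others.

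In ANO7 the odd library was K3, with 0.854 CPM and between 3.79 and 5.54 CPM elsewhere. For CLCN5 it was C3, at 17.3 CPM against 36.8 to 54.7 CPM in the other libraries, and for ATP8A2 it was K2, at 2.51 CPM against 5.53 to 8.09 CPM. No single library or letter held all of them, and the cause was not tested.

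**Figure D5:**
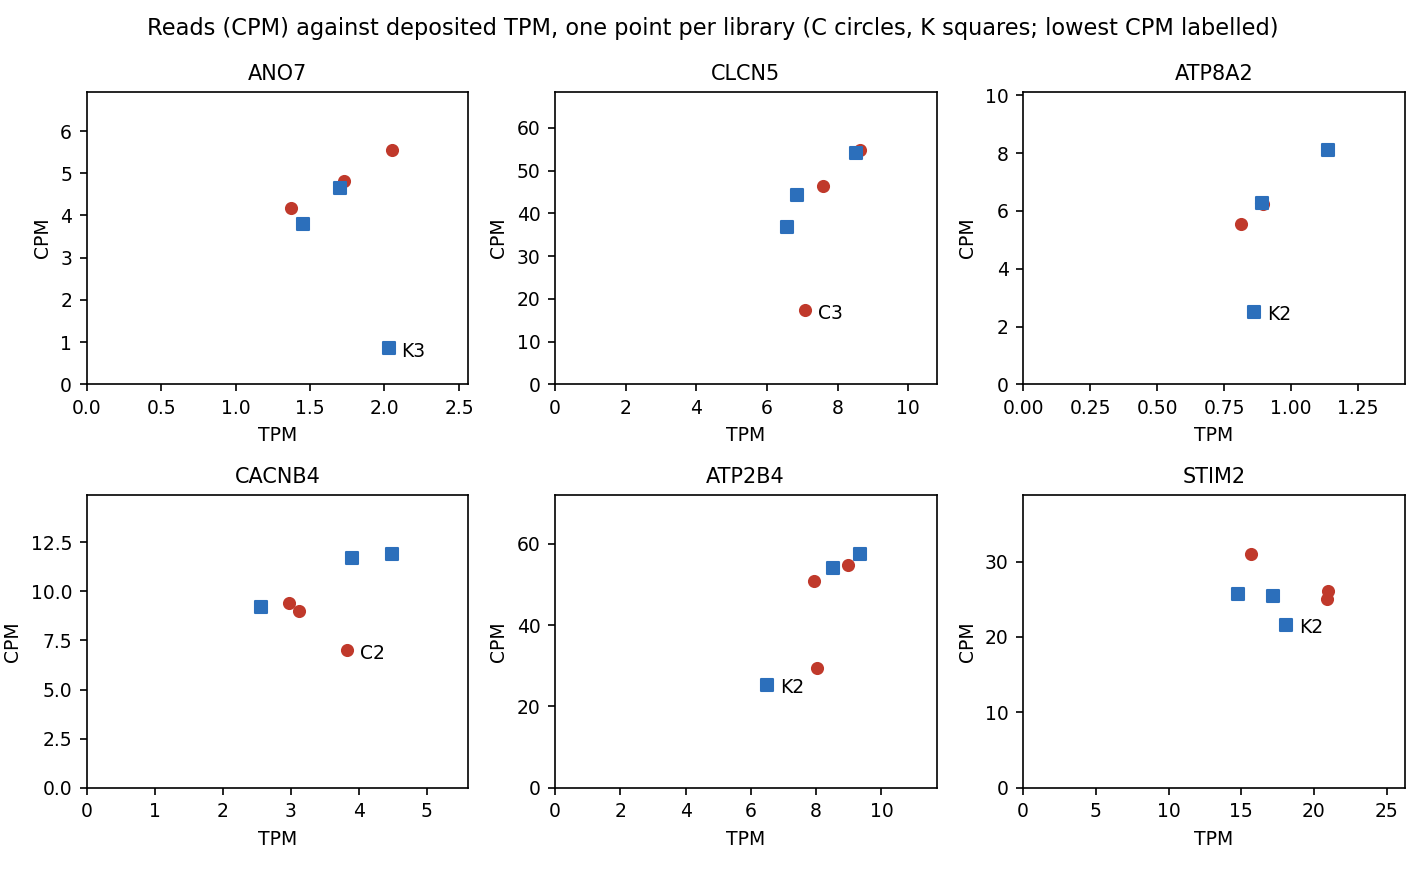
CPM against deposited TPM for the 6 genes of widest spread, 1 point per library (C circles, K squares), with the library of lowest CPM labelled; both axes start at 0. Points on a line through the origin have the same ratio, and K3 in ANO7, C3 in CLCN5 and K2 in ATP8A2 lie off it.

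Across all genes, log2 fold changes rose with GC content (Spearman rho 0.25 across 9048 genes, a description because genes are not independent). With an offset for GC content and length, 5 of 114 transporter, pump and channel genes were called. Over all genes 444 of 9057 were called, a similar share. Of the 5, 1 was higher in C (ANO5) and 4 were lower (ITPR3 and the 3 called in the main test).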

How the data were processed

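Messenger RNA of 6 MDA-MB-231 libraries was sequenced after Trizol extraction and a YEASEN MaxUp mRNA kit, per the labels' protocols. The authors deposited 1 table with counts, TPM and FPKM per gene, per the file headers. Counts were whole reads, TPM and FPKM are scaled by the authors to gene length and library total, and FPKM was checked but entered no result. HISAT2 2.1.0, StringTie 1.3.3b, Trimmomatic, FastQC 0.11.2 and the builds GRCh38 and hg38 come from the submitters' processing notes. The counter, and any use of strand, is not given in the sources used here. The table held 13707 complete rows and 1 that stopped short, with 67.1% to 67.9% of the full TPM total, so some genes were not analysed here and totals are sums over listed genes.

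Counts were tested over the whole table with edgeR 4.0.16 in R 4.3.3: filterByExpr (minimum count 10, minimum total 15), TMM factors between 0.993 and 1.007, and a quasi-likelihood test of C against K with no covariate. P-values were adjusted by Benjamini-Hochberg over 9057 genes, with a threshold of 0.05, and SE is the log2 fold change over the square root of F. The common biological coefficient of variation was 13.2%. Every pair of libraries differed by more than sampling noise (chi-square per degree of freedom at least 23.2). The steps were also run on simulated counts of independent libraries, which cannot show how the libraries here were replicated. CPM of single genes uses TMM-scaled totals. Group sums of TPM were compared by exact permutation. Shared 75-base windows and exon overlaps came from GENCODE release 29.

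The genes, groups and lists were chosen with earlier results of these data known. The rule for named genes took called members, the most abundant tested member of each group, the 4 largest changes each way at or above median expression, the 10 non-overlapping members of smallest p beyond the calls, and called companion genes; others were named after their values were seen. Some genes that the rule took are not reported here. Alternatives were other scalings and filters, DESeq2 1.42.0, limma-voom and limma on log2(TPM + 1) with limma 3.58.1, a replicate block, a GC and length offset, no mitochondrial-genome genes, and each library left out. Leaving out libraries in the group sums, and whether those sums overlap in CPM, were added after the data were seen.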

Additional observations from a re-analysis of the deposited data

How the results depend on the processing

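Against 3 calls among the transporter, pump and channel genes, the count was 8 with DESeq2 and 1 with limma on log2(TPM + 1). It was 5 of 86 with genes of a mean of at least 50 counts, against 577 of 8180 over all genes. With the GC and length offset it was 5 of 114, against 444 of 9057. When 1 library was left out it was 2 to 6 (6 without K2). Over all genes, against 508 calls, DESeq2 gave 1039 (526 higher and 513 lower in C, against 199 and 309), limma on log2(TPM + 1) gave 209, and leaving out 1 library gave 77 to 533 (C1 77, C2 116, C3 109, K1 117, K2 533 and K3 99, named by the library left out), with 326 of the 508 among the 533. Deviations of same-numbered libraries correlated at -0.089, 0.032 and -0.004, against -0.081 to 0.083 for differently numbered ones. The replicate numbers thus showed no pairing in expression, but this cannot tell whether same-numbered libraries were handled together. With the replicate block in edgeR, 0 of the genes passed (25 at an unadjusted p under 0.05) and 25 of all genes did. ATP8A1, ABCC3 and KCNN4 then had adjusted p = 0.0948, 0.0719 and 0.114. Group sums as CPM moved for the ABCD family (0.07), sodium channels (0.11) and CLIC proteins (0.08).

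The cause of these shifts was not tested. Of 646 values for 41 named genes under alternatives, 572 kept their direction and side of the threshold, 50 lost the call, 9 gained it and 15 changed sign. The sign changed with the GC and length offset for ATP11B (0.07) and LRRC8A (-0.04), and with limma on log2(TPM + 1) for ABCG2 (0.04). Leaving out 1 library, it changed within these ranges: ATP11B (-0.05 to 0.01, turned without C3), LRRC8A (-0.02 to 0.02, turned without C3 or K1), ABCG2 (-0.22 to 0.09, turned without K3), ATP13A2 (-0.07 to 0.02, turned without C1, C2 or K2), CLCN3 (-0.06 to 0.24, turned without C2 or K3), PIEZO1 (-0.03 to 0.01, turned without K3), AQP11 (-0.02 to 0.06, turned without K3) and LRRC8E (-0.37 to 0.03, turned without C1). Low counts limit CLIC2, CLIC3 and other genes near the filter.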
